A study of Rattus norvegicus with 138 samples.

Results

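The genes described are Slc17a6, Slc17a7 and Slc17a8, which encode the vesicular glutamate transporters VGLUT2, VGLUT1 and VGLUT3, and Slc38a1 and Slc38a2, which encode the neuronal glutamine transporters SNAT1 and SNAT2. They were chosen by symbol, 5 of the 32883 genes in the count tables. RNA-seq had been run on tissue punches of the nucleus of the solitary tract (NTS), the caudal ventrolateral medulla (CVLM) and the rostral ventrolateral medulla (RVLM) of female spontaneously hypertensive rats (SHRs, SHR/NHsd) and normotensive Wistar-Kyoto (WKY, WKY/NHsd) rats. They were taken at ages of 8 wk (5 WKY rats and 5 SHRs), 10 wk (4 and 5), 12 wk (3 and 6), 16 wk (3 and 6) and 24 wk (3 and 6), and each of the 46 rats gave 1 library from each region. No treatment is named in the labels. SHRs develop hypertension spontaneously over these ages, and the design compares the strains before, during and after its onset. The strains are separate inbred lines, so blood pressure and the rest of the genetic background cannot be told apart. The punches came from both sides of the brainstem of a rat and were combined.

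Glutamate is the main fast excitatory transmitter of the brainstem circuit that holds blood pressure. Baroreceptor afferents release it in the NTS, NTS neurons release it onto inhibitory neurons of the CVLM, and these in turn restrain the RVLM neurons that drive sympathetic outflow. The VGLUT proteins load glutamate into synaptic vesicles. Slc17a6 is the form known from most subcortical and brainstem glutamate neurons, Slc17a7 from neocortex, hippocampus and cerebellar granule cells and from some brainstem and precerebellar neurons, and Slc17a8 from scattered serotonergic, cholinergic and other neurons. Astrocytes take up released glutamate and turn it into glutamine, and SNAT1 and SNAT2 carry glutamine back across the plasma membrane of neurons, where it is a precursor of both glutamate and GABA. Slc38a2 is also transcribed in many other cell types and is known to be induced when amino acids run short.

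The start regions of 3 of the genes are shown because the results turn on them. Slc17a7 and Slc17a6 had unlike levels across the regions, and Slc38a1 is the gene whose level differed between the strains. Each line runs 5′ to 3′ on the strand of the gene, from 250 bases before to 50 bases after the start that RefSeq gives in the GRCr8 assembly. The counts themselves were made on another build, rn6. Capitals mark GGGCGG, the GC box bound by Sp family factors, and TGATGNAA, a core of the response elements bound by ATF4 with C/EBP factors. Both were searched on both strands.
Slc17a7 (chr1:104785955-104786254, plus strand): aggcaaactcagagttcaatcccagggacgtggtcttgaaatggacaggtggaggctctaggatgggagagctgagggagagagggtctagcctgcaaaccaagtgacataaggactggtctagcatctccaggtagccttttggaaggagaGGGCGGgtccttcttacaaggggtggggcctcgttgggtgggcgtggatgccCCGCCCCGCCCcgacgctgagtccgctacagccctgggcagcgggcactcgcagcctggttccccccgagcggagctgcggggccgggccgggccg
Slc17a6 (chr1:110348197-110348496, plus strand): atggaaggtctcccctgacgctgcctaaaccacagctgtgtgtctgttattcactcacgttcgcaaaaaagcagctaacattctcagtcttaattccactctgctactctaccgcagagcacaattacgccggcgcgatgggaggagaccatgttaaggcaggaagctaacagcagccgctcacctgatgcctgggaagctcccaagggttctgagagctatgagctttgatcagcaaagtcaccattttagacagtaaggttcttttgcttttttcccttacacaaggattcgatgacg
Slc38a1 (chr7:129681352-129681651, minus strand): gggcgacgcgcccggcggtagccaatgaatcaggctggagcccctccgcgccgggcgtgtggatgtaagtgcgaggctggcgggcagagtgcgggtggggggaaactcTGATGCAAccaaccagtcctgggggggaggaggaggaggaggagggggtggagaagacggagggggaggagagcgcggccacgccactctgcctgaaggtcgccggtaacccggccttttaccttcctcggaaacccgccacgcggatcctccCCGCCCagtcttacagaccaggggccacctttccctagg

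The Slc17a7 window held 3 GC boxes, whose first bases lay at positions -98, -46 and -41 from the start, and the last pair overlaps by 1 base. The Slc17a6 window held neither motif. The Slc38a1 window held 1 GC box at position 12 and 1 TGATGNAA at position -142. Of the 33469 windows of this length in the promoter table, 33.1% held GGGCGG and 3.98% held TGATGNAA. The windows also differed in base composition, with 64.7% G and C for Slc17a7, 49% for Slc17a6 and 68% for Slc38a1 against a median of 51.7% over all windows. The window of Slc38a2, chr7:129742570-129742869 on the minus strand, was the richest of the 5 at 72.3% and held 1 GC box, and that of Slc17a8, chr7:25935361-25935660 on the minus strand, had 51.3% and held neither motif. Slc38a1 and Slc38a2 are neighbours on chromosome 7, with only unnamed loci between them in RefSeq. These matches are letters in a window and no measure of binding.

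Levels are given in CPM, a gene's count scaled to a common library total, with the totals adjusted by TMM factors over all libraries of the 3 regions. Totals ran from 5904581 to 17889417 counts per library, with a median of 10143036. A number, 1 or 2, closes each library's name, and what it stands for is not given in the sources used here. Number 2 marked every 10 wk library, 3 of the 5 WKY rats at 8 wk, 1 SHR at 12 wk and 1 SHR at 24 wk, in all 42 libraries of 14 rats with a median total of 14677496, against 9331624 for the 96 libraries of number 1. Values are given beside several of the results whose call this library number changed, and not all such results are named. In 2 CVLM libraries, of WKY and SHR replicate 5 at 8 wk, the title gives 8 wk and the age label 10 weeks, and they were kept at 8 wk. Neuronal transcripts were present throughout, with Snap25 at medians of 1878 CPM in NTS, 3230.3 in CVLM and 2471 in RVLM. Neuronal markers did not order the regions alike. Syt1 was lowest in the RVLM (median 112 CPM, against 325 in the NTS and 359 in the CVLM). Nefl was highest there (13521, against 2906 and 4487). The 4 markers of catecholamine neurons, which are known from all 3 regions, summed to medians of 215 CPM in NTS, 274 in CVLM and 86.1 in RVLM. Among them Dbh was lowest in the RVLM (median 9.55 CPM, against 67.6 in the NTS and 85.0 in the CVLM), and Pnmt, which marks adrenergic neurons, was lowest in the NTS (3.60, against 19.7 in the RVLM and 41.8 in the CVLM). Choroid plexus markers summed to 4337 CPM in 1 WKY NTS library at 12 wk against a WKY median of 3.74, and serotonergic markers to 154 CPM in 1 WKY CVLM library at 10 wk against 5.60. In bulk tissue, fewer cells of a type and less RNA per cell cannot be told apart.

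Of the 5 genes, Slc17a7 had the largest differences between regions. It was abundant in the CVLM, at 215 ± 99.2 CPM in WKY rats (SD, n = 18) and 231 ± 89.5 in SHRs (SD, n = 28), and low in the NTS, at 5.75 ± 4.14 and 7.95 ± 5.55, and in the RVLM, at 4.67 ± 1.94 and 7.73 ± 4.77. The lowest CVLM library, at 71.8 CPM, lay above the highest NTS library at 21.3 and the highest RVLM library at 17.5, so the CVLM did not overlap with either. Within rats, the CVLM level exceeded the RVLM level 46-fold in WKY rats (log2 difference 5.52, SE 0.25, adjusted p = 1.48e-31) and 33.7-fold in SHRs (5.07, SE 0.19, adjusted p = 3.99e-37). It exceeded the NTS level 48.0-fold in WKY rats (NTS minus CVLM -5.59, SE 0.25, adjusted p = 3.21e-31) and 30.7-fold in SHRs (-4.94, SE 0.19, adjusted p = 1.99e-36). Both differences had the same direction in 18 of 18 WKY rats and 28 of 28 SHRs. By size these were the 12th and the 11th largest CVLM to RVLM differences of the 14043 genes tested, in WKY rats and SHRs, and the 16th and the 15th largest NTS to CVLM differences. The NTS and the RVLM could not be ordered, since the log2 difference was -0.06 in WKY rats (95% interval -0.58 to 0.46, adjusted p = 0.855) and 0.13 in SHRs (-0.24 to 0.50, adjusted p = 0.557).

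**Figure D1:**
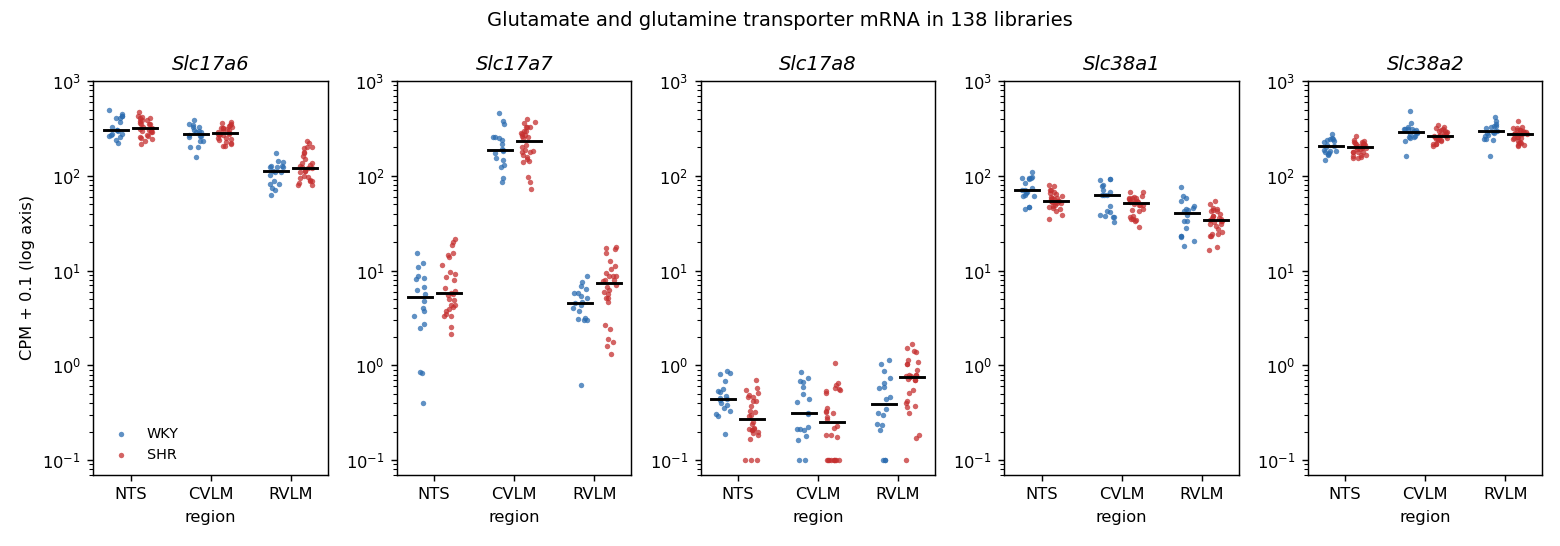
Level of each of the 5 genes in the 3 regions, in CPM plus 0.1 on a log axis, with 1 point per library for WKY rats and SHRs side by side and a black line at the median of each set. The CVLM points of Slc17a7, from 71.8 to 455 CPM, stand clear of its NTS and RVLM points, while Slc17a6 and Slc38a1 are lowest in the RVLM and Slc38a2 is lowest in the NTS.

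The spread of Slc17a7 in the NTS was wide for its level. It ran from 0.302 to 15.2 CPM among WKY rats and from 2.05 to 21.3 among SHRs, on as few as 3 counts in a library. In the CVLM it ran from 86.9 to 455 CPM in WKY rats and from 71.8 to 398 in SHRs. Of markers of cells known for Slc17a7, Gabra6, which defines cerebellar granule cells, had a median of 0 in each region and was at 0 in 35 NTS, 29 CVLM and 25 RVLM libraries of 46. The 5 granule cell markers together had medians of 5.35 CPM in NTS, 4.99 in CVLM and 1.08 in RVLM, but they did not agree in direction. Neurod1 and Zic1 were highest in the NTS (medians of 4.01 and 0.790 CPM, against 1.31 and 0.394 in the CVLM). Cbln3 was highest in the CVLM, with a median of 2.31 CPM against 0.115 in the NTS and 0.0949 in the RVLM. Fat2 was highest there too, at 0.540 against 0.360 and 0.111. Barhl1, a transcription factor of precerebellar neurons, had a median of 1.21 CPM in the CVLM, was at 0 in 1 of 46 libraries there, and was at 0 in 26 NTS and 27 RVLM libraries. Pou4f1 and Barhl2, the other precerebellar markers, had medians of 0 in every region. The part of such cells in the level of Slc17a7 was not tested.

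Slc17a6 followed another order, in which the NTS and the CVLM lay close together and the RVLM was lowest. Its level was 335 ± 83.4 CPM in NTS, 277 ± 58.4 in CVLM and 110 ± 29.5 in RVLM of WKY rats (SD, n = 18), and 328 ± 66.0, 285 ± 47.6 and 134 ± 45.6 in SHRs (SD, n = 28). The lowest NTS library held 218 CPM and the highest RVLM library 234, so that these regions overlapped only at their ends. NTS exceeded RVLM by 1.53 on the log2 scale in WKY rats (SE 0.09, adjusted p = 1.11e-25) and by 1.34 in SHRs (SE 0.07, adjusted p = 8.59e-29), and this held in 18 of 18 and 28 of 28 rats. CVLM exceeded RVLM by 1.27 (SE 0.09, adjusted p = 5.08e-21) and 1.14 (SE 0.07, adjusted p = 1.87e-24), again in every rat. The step from CVLM to NTS was small, 0.26 in WKY rats (SE 0.09, adjusted p = 0.0109, 15 of 18 rats) and 0.20 in SHRs (SE 0.07, adjusted p = 0.00941, 24 of 28 rats). The RVLM was also lowest for Gad1 (median 88.6 CPM, against 279 in the NTS and 173 in the CVLM). Gad2 (105, against 252 and 198) and Slc32a1 were lowest there too. Slc6a5, the other marker of GABA and glycine neurons, was lowest in the NTS (89.7, against 109 in the RVLM). The cholinergic marker Chat was highest in the RVLM (243, against 61.0 and 18.5). The part of neuron types in the Slc17a6 levels was not tested. Set against each other, Slc17a7 counts per Slc17a6 count had medians of 0.702 in WKY rats and 0.816 in SHRs in the CVLM, 0.0146 and 0.0178 in the NTS, and 0.0449 and 0.0490 in the RVLM. This ratio is not corrected for transcript length and so is compared only between regions.

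Slc17a8 was close to the limit of detection in all regions. It failed the low-count filter in each region, its largest library held 15 counts, and it was at 0 in 3 NTS, 11 CVLM and 4 RVLM libraries of 46. Its medians were 0.346 CPM in NTS, 0.212 in CVLM and 0.294 in RVLM of WKY rats, and 0.173, 0.153 and 0.656 in SHRs. When the filter was dropped, the SHR levels were lower in the NTS than in the RVLM (log2 difference -1.52, SE 0.34, adjusted p = 0.000115 over 23732 genes) and lower in the CVLM than in the RVLM (-1.70, SE 0.35, adjusted p = 5.06e-05). In WKY rats the same differences were 0.24 (SE 0.42, adjusted p = 0.913) and -0.48 (SE 0.46, adjusted p = 0.648). The difference of the strains in the NTS to RVLM step was -1.76 (SE 0.55, adjusted p = 0.128), so it was not shown to differ.

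Of the glutamine transporters, Slc38a1 was highest in the NTS and Slc38a2 was lowest there. Slc38a1 stood at 74.4 ± 19.4 CPM in NTS, 59.6 ± 21.2 in CVLM and 39.6 ± 16.0 in RVLM of WKY rats, and at 56.0 ± 11, 49.1 ± 10.6 and 33.8 ± 9.40 in SHRs (SD, n = 18 and 28). All 3 steps passed the test in both strains. NTS exceeded RVLM by 0.91 on the log2 scale in WKY rats (SE 0.09, adjusted p = 1.04e-15, 17 of 18 rats) and by 0.76 in SHRs (SE 0.07, adjusted p = 7.53e-17, 28 of 28 rats). The CVLM lay between, 0.59 above the RVLM in WKY rats (adjusted p = 2.05e-08) and 0.57 in SHRs (adjusted p = 3.08e-11), and 0.33 below the NTS in WKY rats (adjusted p = 0.000752) and 0.20 in SHRs (adjusted p = 0.0102).

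Slc38a2 was lowest in the NTS, at 207 ± 36.7 CPM in WKY rats and 199 ± 28.1 in SHRs, against 294 ± 63.7 and 265 ± 35.0 in the CVLM and 298 ± 58.7 and 272 ± 41.8 in the RVLM. NTS minus RVLM was -0.56 in WKY rats (SE 0.06, adjusted p = 4.29e-13) and -0.45 in SHRs (SE 0.05, adjusted p = 1.71e-13). NTS minus CVLM was -0.50 (SE 0.06, adjusted p = 5.98e-11) and -0.42 (SE 0.05, adjusted p = 2.45e-12). The NTS was the lower region of the pair in all but 1 or 2 rats of a strain in each of these comparisons. The CVLM and the RVLM did not pass the test, with differences of -0.06 (95% interval -0.18 to 0.06, adjusted p = 0.457) and -0.02 (-0.12 to 0.07, adjusted p = 0.725).

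Counted over the 4 genes that were tested, 3 differed between NTS and RVLM in WKY rats and 3 in SHRs, where 62.2% and 64.4% of all genes did. All 4 differed between NTS and CVLM in each strain, where 52.5% and 55.7% of all genes did. Between CVLM and RVLM, 3 differed in each strain, against 39.0% and 44.8% of all genes. With so many genes called, the number of members called says little about them, and the size of the Slc17a7 differences is the measure to read.

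Between the strains, Slc38a1 was lower in SHRs. Averaged over the 5 ages, its level in SHRs was below that in WKY rats by 0.43 on the log2 scale in the NTS (SE 0.08, adjusted p = 0.000153) and by 0.32 in the CVLM (SE 0.09, adjusted p = 0.00971), which are 0.740 and 0.798 of the WKY level. In the RVLM the difference was -0.28 (SE 0.11, 95% interval -0.49 to -0.07) and did not pass the test (adjusted p = 0.0859). Slc38a1 was the only gene of the 4 tested that differed in the NTS and the only one in the CVLM, where 11.2% and 12.3% of all genes were called, and none of the 4 was called in the RVLM, where 10.8% were. The adjusted p in the RVLM fell below 0.05 without the RVLM library of WKY replicate 5 at 8 wk (-0.31, adjusted p = 0.0390). The calls in the NTS and the CVLM held in each of the 46 fits that left out 1 library. The CVLM call did not hold with the replicate number as a block, an alternative given below. The summed level of 7 neuronal markers had medians of 7388 CPM in WKY rats and 7106 in SHRs in the NTS, 11089.9 and 10626 in the CVLM, and 26785 and 22804 in the RVLM, and its part in the strain difference was not tested.

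The values by rat are given for single ages, although the strain difference of Slc38a1 was not shown to vary with age. The strain by age test had adjusted p = 0.858 for NTS, 0.318 for CVLM and 0.842 for RVLM. Groups were 3 WKY rats and 6 SHRs at 12, 16 and 24 wk, and 5 of each at 8 wk. Full separation of the strains comes more readily by chance with 3 WKY rats. The share of all genes that separated fully is not given here. In the NTS at 16 wk, WKY rats had 74.9, 92.0 and 93.8 CPM and the 6 SHRs ran from 53.3 through a median of 56.8 to 71.3, so every SHR lay below every WKY rat. At 24 wk, WKY rats had 66.5, 110 and 67.8 CPM and SHRs ran from 45.8 through 54.8 to 70.5, and 5 of 6 SHRs lay below all WKY rats. The log2 differences were -0.54 at 16 wk (SE 0.19, adjusted p = 0.231) and -0.56 at 24 wk (SE 0.19, adjusted p = 0.133), and at 8, 10 and 12 wk they were -0.31, -0.28 and -0.49 (adjusted p = 0.283, 0.464 and 0.214). The sign was thus the same at all 5 ages in the NTS, while no single age passed the test there.

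In the CVLM at 24 wk, WKY rats had 63.3, 79.4 and 90.2 CPM, and SHRs ran from 37.1 through a median of 51.8 to 58.3. All 6 SHRs lay below all 3 WKY rats, and the difference was -0.68 (SE 0.20, adjusted p = 0.0320), where 7.13% of genes were called. This was the only call among the 60 comparisons of the 4 genes in 3 regions at 5 ages. It was lost, with adjusted p between 0.0529 and 0.214, when any of WKY replicates 1, 2 or 3 at 24 wk, SHR replicate 2 at 10 wk or SHR replicate 6 at 24 wk was left out, while the difference stayed between -0.78 and -0.56. It was lost as well without the filter on low counts (-0.63, adjusted p = 0.0909) and when 24 wk was fitted alone (-0.63, adjusted p = 0.0501). A fit with the replicate number as a block lost it too. At 16 wk the CVLM values were 61.9, 93.2 and 92.4 CPM in WKY rats and 48.6, 54.6 and 57.7 as lowest, median and highest in SHRs. Again every SHR lay below every WKY rat, with a difference of -0.63 (SE 0.20, adjusted p = 0.124), which passed when 16 wk was fitted alone (-0.63, adjusted p = 0.0164).

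At 8 wk the order was the other way round in the CVLM and the RVLM, and the library number moved with it. In the CVLM, WKY rats of number 1 had 70.7 and 62.9 CPM and those of number 2 had 38.1, 36.8 and 37.8, while the SHRs, all of number 1, had 43.6, 68.0, 52.3, 67.4 and 59.1. The SHR minus WKY difference was 0.24 (SE 0.19, adjusted p = 0.476) as measured and -0.10 (SE 0.17, adjusted p = 0.989) with the library number as a term. In the RVLM the WKY rats of number 1 had 45.6 and 33.6 CPM and those of number 2 had 20.6, 23.1 and 17.9, with a strain difference of 0.35 (SE 0.22, adjusted p = 0.293) that became 0.07 (SE 0.22, adjusted p = 0.889) with the term. It reached 0.60 (adjusted p = 0.0490) when the RVLM library of WKY replicate 1 was left out.

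**Figure D2:**
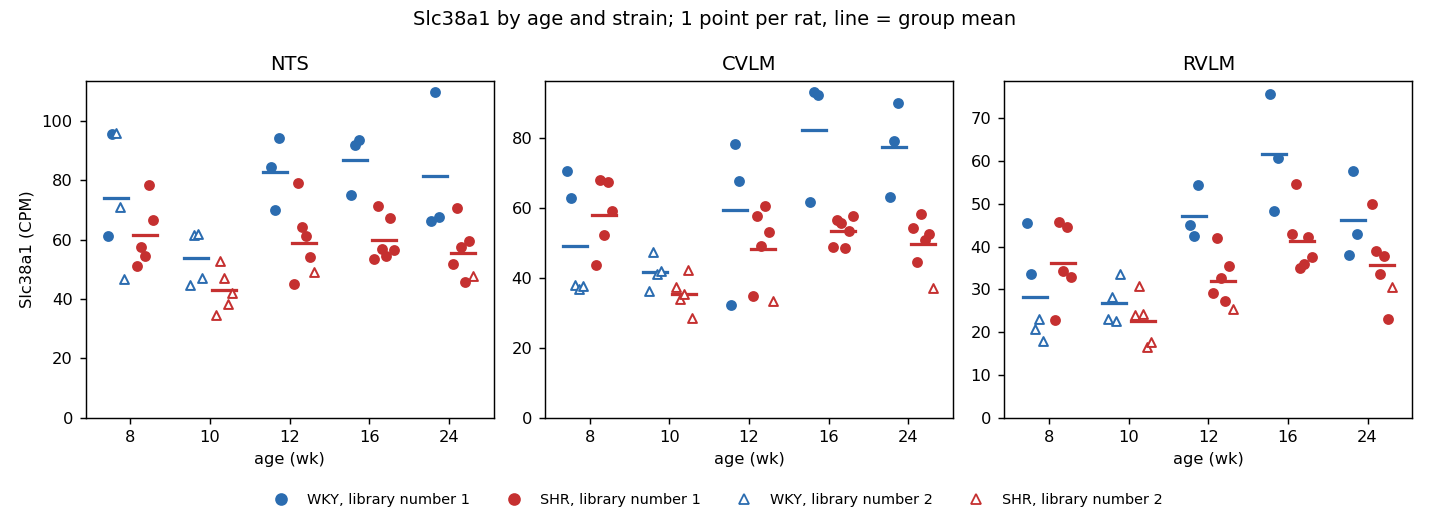
Slc38a1 level in CPM (linear axis from 0) against age in wk in the 3 regions, with 1 point per library and a short horizontal line at each group mean of WKY rats and SHRs. Open triangles are libraries of number 2 and filled circles those of number 1. From 12 wk on the SHR mean lies below the WKY mean in each region. The means of both strains are lowest at 10 wk in each region, where all libraries carry number 2.

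With the library number as a term, the strain difference of Slc38a1 averaged over ages was -0.45 in the NTS (SE 0.08, adjusted p = 9.66e-05), -0.35 in the CVLM (SE 0.07, adjusted p = 0.000374) and -0.30 in the RVLM (SE 0.10, adjusted p = 0.0318). Without the libraries of number 2 outside 10 wk it was -0.43 (adjusted p = 0.000246), -0.37 (adjusted p = 0.00127) and -0.37 (adjusted p = 0.0147). At 10 wk, where every library carried number 2, the strains differed by -0.28 in NTS, -0.23 in CVLM and -0.25 in RVLM, none of which passed the test. In the RVLM at 12 wk, WKY rats had 45.0, 42.5 and 54.3 CPM and SHRs ran from 25.3 through a median of 30.9 to 42.1, and the difference was -0.55 (SE 0.24, adjusted p = 0.567). All 6 SHRs there lay below all WKY rats, by a margin of less than 1 CPM for the nearest pair.

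None of the vesicular transporters passed the test between strains in any region or at any age in the main fit. Among the alternatives given below, DESeq2 called Slc17a7 in the NTS at 24 wk. A fit with the replicate number as a block called its RVLM mean. The largest difference was that of Slc17a7 in the NTS at 24 wk, where WKY rats had 0.755, 2.6 and 0.302 CPM and SHRs ran from 3.25 through a median of 5.51 to 13.8. All 6 SHRs lay above all 3 WKY rats, and the log2 difference was 2.59 (SE 0.87, adjusted p = 0.118), where 2.46% of genes were called. Without WKY replicate 2 it was 3.70 (adjusted p = 0.0376). At 16 wk the NTS difference had the other sign, -0.84 (SE 0.67), with WKY rats at 10.9, 3.89 and 15.2 CPM and SHRs between 2.05 and 8.49. Averaged over ages Slc17a7 had a difference of 0.75 in the NTS (95% interval 0.13 to 1.36, adjusted p = 0.138), which passed the test only without WKY replicate 1 at 12 wk (0.97, adjusted p = 0.0421). In the RVLM the mean difference was 0.60 (0.12 to 1.08, adjusted p = 0.126) with 11 of 28 SHRs above every WKY rat. There at 10 wk WKY rats had 4.53, 2.96, 4.42 and 5.28 CPM and SHRs 5.61, 7.84, 9.41, 6.94 and 6.66, without overlap, and the difference was 0.76 (SE 0.52, adjusted p = 0.945, with 2.30% of genes called). In the CVLM, where the gene is abundant, the mean difference was 0.09 (-0.24 to 0.42, adjusted p = 0.835).

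**Figure D3:**
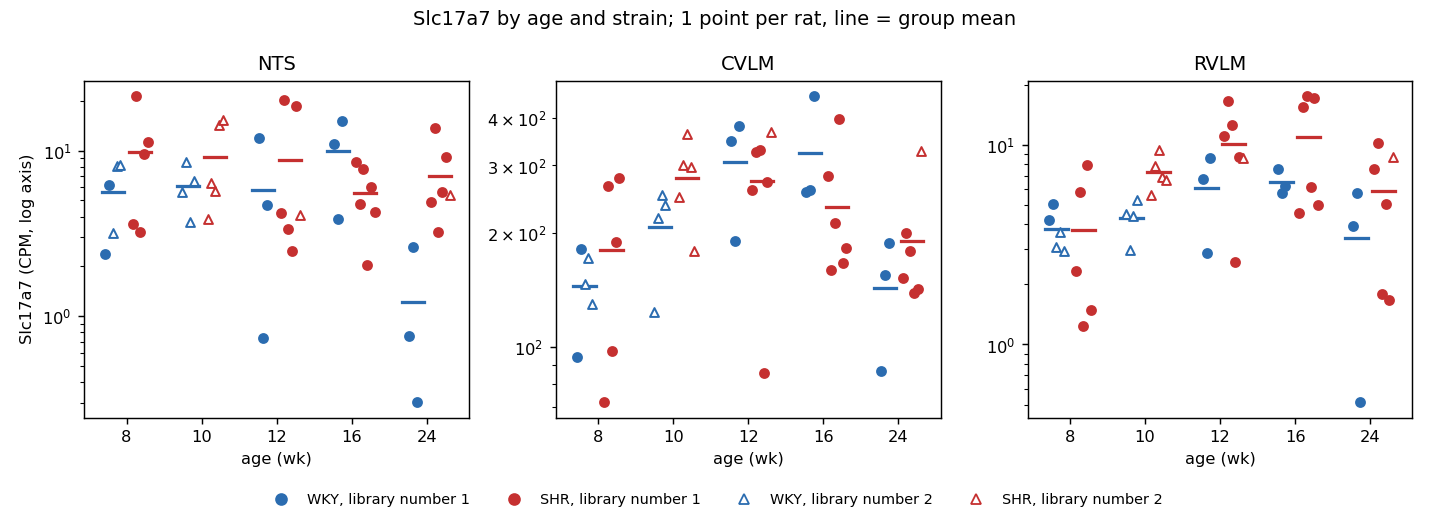
Slc17a7 level in CPM on a log axis against age in wk, 1 panel per region, with 1 point per library and a short horizontal line at each group mean. Open triangles are libraries of number 2 and filled circles those of number 1. At 24 wk in the NTS the 3 WKY points, at 0.302 to 2.6 CPM, lie below the 6 SHR points, at 3.25 to 13.8 CPM, and the strains overlap there at the other ages. In the RVLM at 10 wk the 5 SHR points, at 5.61 to 9.41 CPM, lie above the 4 WKY points, at 2.96 to 5.28.

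Slc17a6 differed between strains by 0.04 in the NTS (95% interval -0.09 to 0.18, adjusted p = 0.819), 0.08 in the CVLM (-0.05 to 0.21, adjusted p = 0.555) and 0.24 in the RVLM (-0.01 to 0.49, adjusted p = 0.269) as means over ages. These give each age the same weight, and over all NTS libraries, where the strains have unlike numbers at each age, the plain mean was lower in SHRs (328 against 335 CPM). Its largest value at an age was 0.57 in the RVLM at 10 wk (SE 0.27, adjusted p = 0.595), where WKY rats had 125, 62.5, 101 and 141 CPM and SHRs 119, 201, 222, 84.4 and 174. There 3 of 5 SHRs lay above all WKY rats. Slc38a2 differed by -0.02 in the NTS (-0.14 to 0.09), -0.12 in the CVLM (-0.25 to 0.01) and -0.15 in the RVLM (-0.29 to -0.0025), with adjusted p = 0.905, 0.294 and 0.242. The unadjusted p of the F test for the RVLM value was 0.0529, although its interval excluded no difference. Without the libraries of number 2 outside 10 wk the RVLM value was -0.20 (adjusted p = 0.0425). Its largest value at an age was 0.39 in the NTS at 12 wk (SE 0.14, adjusted p = 0.163), with WKY rats at 164, 173 and 147 CPM and 4 of 6 SHRs above them all. For Slc17a8, fitted without the filter, the mean difference was -0.77 in the NTS (SE 0.32, adjusted p = 0.170), -0.30 in the CVLM (SE 0.47, adjusted p = 1) and 0.87 in the RVLM (SE 0.36, adjusted p = 0.167).

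**Figure D4:**
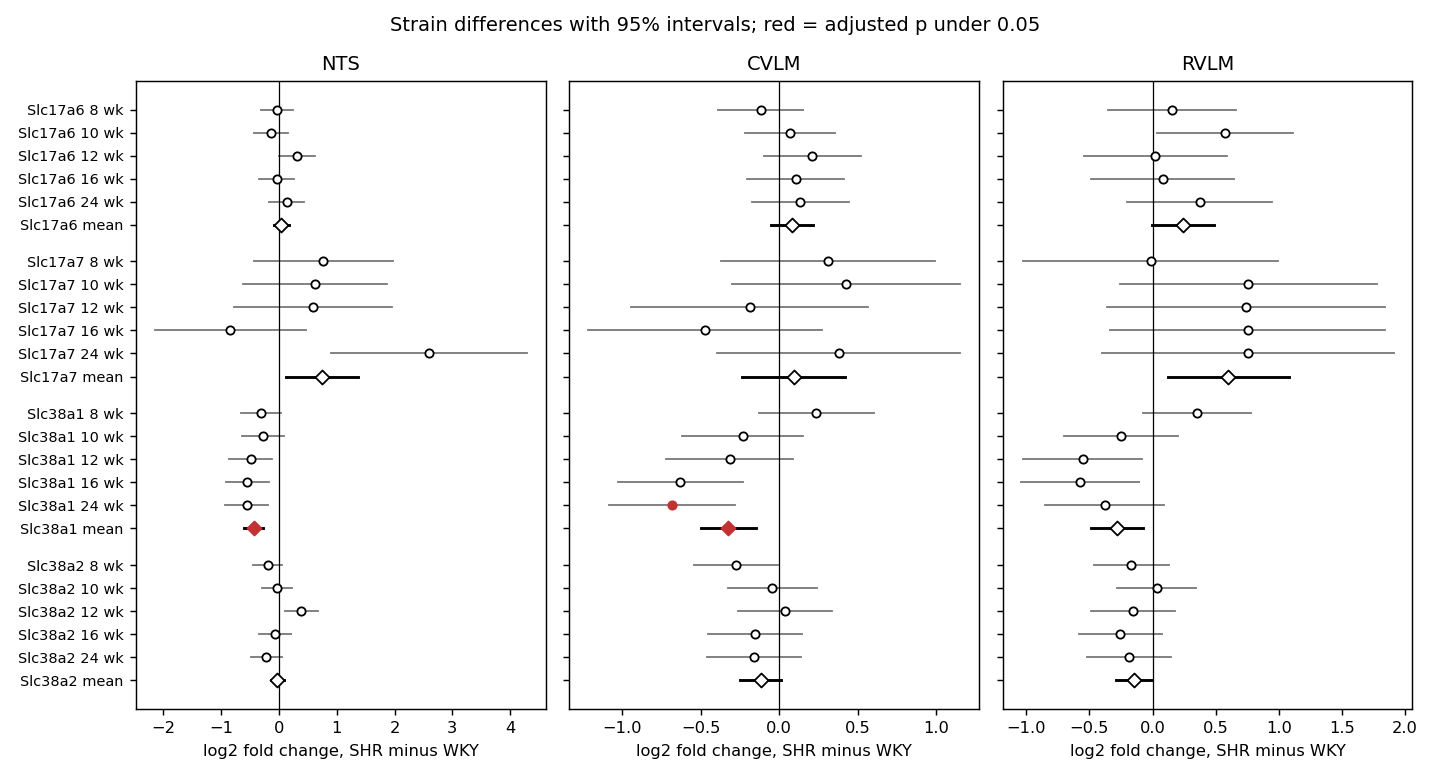
SHR minus WKY log2 differences of the 4 tested genes (rows) at each age (circles) and averaged over ages (diamonds) in the 3 regions (panels), with 95% intervals as lines, and red marking adjusted p under 0.05. The horizontal axes differ between panels. The red marks are the Slc38a1 means in the NTS and the CVLM and Slc38a1 in the CVLM at 24 wk, and the widest intervals are those of Slc17a7 in the NTS and the RVLM.

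At single ages none of the 4 genes was called in the NTS at 8, 10, 12, 16 or 24 wk, where 5.79, 4.44, 3.10, 1.73 and 2.46% of genes were. In the CVLM 7.64, 3.18, 2.62 and 2.27% of genes were called at 8, 10, 12 and 16 wk, with no member among them. In the RVLM the figures were 9.78, 2.30, 1.70, 1.65 and 2.24% at the 5 ages, also with no member. The strain difference varied with age for 0.0145% of genes in NTS, 0.0224% in CVLM and 0.00746% in RVLM, and for no member, the smallest unadjusted p being 0.0133 for Slc38a1 in the CVLM (adjusted p = 0.318). The strain differences averaged over ages did not differ between regions for any of the 4 tested members either. Of all genes, 1.82% had a strain difference that differed between NTS and RVLM, 0.449% between NTS and CVLM and 0.320% between CVLM and RVLM. The largest such value of the 4 was that of Slc17a7 between NTS and CVLM, 0.64 (SE 0.29, unadjusted p = 0.0314, adjusted p = 0.588), and that of Slc38a1 between NTS and RVLM was -0.15 (SE 0.11, adjusted p = 0.622). Slc38a1 passing in 2 regions and not in the third is therefore not shown to be a difference between regions.

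Across the ages within a strain, Slc38a1 and Slc17a6 varied. A test over the 5 ages passed for Slc38a1 in the CVLM (adjusted p = 0.00211 in WKY rats and 0.0484 in SHRs) and the RVLM (0.01 and 0.0383), and for Slc17a6 in the NTS (0.00555 and 0.0156). In WKY rats 12.5% of genes varied with age in NTS, 22.2% in CVLM and 6.79% in RVLM, and in SHRs 18.7, 20.0 and 14.1%. Slc17a7 and Slc38a2 did not pass in any region. Their smallest adjusted p were 0.0522 for Slc17a7 in the CVLM of WKY rats and 0.0533 for Slc38a2 in the NTS of WKY rats.

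For Slc17a6 in the NTS the library number moved with this variation. WKY rats at 8 wk had 294 and 257 CPM in libraries of number 1 and 374, 430 and 412 in those of number 2. At 10 wk, all of number 2, WKY rats had 447, 494, 411 and 431 CPM, and at 12 wk, all of number 1, they had 221, 278 and 267. The single SHR of number 2 at 24 wk had 471 CPM against 255 to 328 in the other 5. Other libraries did not follow the number: the single SHR of number 2 at 12 wk had 320 CPM, inside the range of 218 to 385 of the rest. The SHRs at 8 wk, all of number 1, ran from 292 to 419 CPM. No age differed from 8 wk past the test, and the library number as a term had a coefficient of 0.47 (number 2 minus 1, SE 0.11, adjusted p = 0.00175) in the NTS and 0.34 (SE 0.12, adjusted p = 0.0313) in the CVLM.

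**Figure D5:**
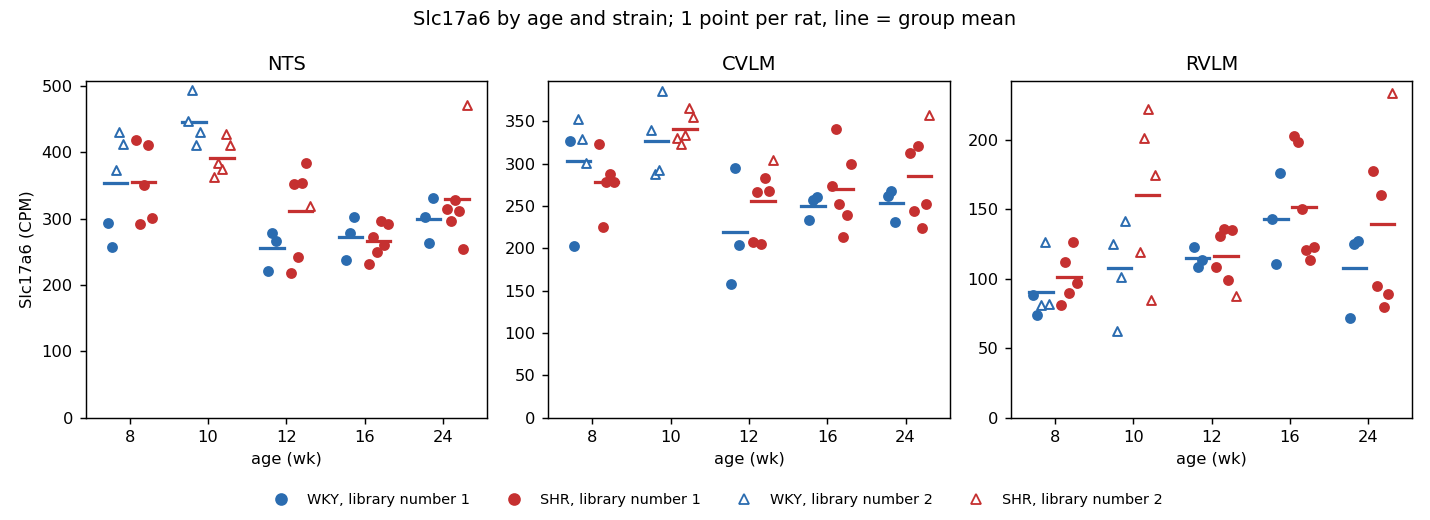
Slc17a6 level in CPM (linear axis from 0) against age in wk in the 3 regions, with 1 point per library and a short horizontal line at each group mean of each strain. Open triangles are libraries of number 2 and filled circles those of number 1. In the NTS panel the 10 wk libraries and the number 2 libraries at 8 and 24 wk, from 362 to 494 CPM, include the highest points.

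For Slc38a1 the coefficient of the library number was -0.66 in the CVLM (SE 0.14, adjusted p = 0.00106), -0.57 in the RVLM (SE 0.18, adjusted p = 0.0262) and -0.20 in the NTS (SE 0.16, adjusted p = 0.402), so number 2 went with lower levels. In the CVLM of WKY rats the 7 libraries of number 2 ran from 36.3 to 47.5 CPM, and the 11 of number 1 from 32.2 to 93.2. In SHRs those of number 2 ran from 28.5 to 42.2 CPM and those of number 1 from 35.0 to 68.0. The term passed the test for 3526 genes in NTS, 2902 in CVLM and 2204 in RVLM.

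Against 8 wk, Slc38a1 was lower in SHRs at 10 wk in the NTS (-0.46, SE 0.18, adjusted p = 0.0447), the CVLM (-0.69, SE 0.19, adjusted p = 0.00774) and the RVLM (-0.65, SE 0.22, adjusted p = 0.0299). It was the only member called in each of these, where 27.1, 25.2 and 22.0% of genes were. The CVLM values were 43.6, 68.0, 52.3, 67.4 and 59.1 CPM at 8 wk and 37.4, 33.9, 35.3, 42.2 and 28.5 at 10 wk, without overlap. In SHRs the 8 wk libraries all had number 1 and the 10 wk libraries all number 2. In WKY rats Slc38a1 was higher than at 8 wk in the CVLM at 16 wk (0.77, SE 0.21, adjusted p = 0.0444, with 1.98% of genes called) and at 24 wk (0.71, SE 0.21, adjusted p = 0.0234, 13.7%), as well as at 16 wk in the RVLM (1.15, SE 0.25, adjusted p = 0.0307, 0.209%). It was the only member called in these as well. Without the 2 CVLM libraries of conflicting age labels, the CVLM values were 0.69 at 16 wk (adjusted p = 0.15) and 0.63 at 24 wk (adjusted p = 0.0708) and did not pass. Without the filter on low counts they were 0.76 (adjusted p = 0.0742) and 0.65 (adjusted p = 0.0611), and with RLE size factors the 16 wk value was 0.76 (adjusted p = 0.0511). With the library number as a term none of the 6 passed. Only WKY rats at 8 wk and SHRs at 12 and 24 wk held both numbers. The term was thus estimated from these groups and carried over to the others, among them SHRs at 8 and 10 wk. The values in SHRs at 10 wk became -0.26, -0.03 and -0.08 in the NTS, the CVLM and the RVLM, and those in WKY rats 0.43 at 16 wk and 0.37 at 24 wk in the CVLM and 0.86 at 16 wk in the RVLM, with adjusted p from 0.273 to 0.992.

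Single libraries also decided several of these age changes. In the CVLM of SHRs the call at 10 wk held in all 46 fits that left out 1 library. The NTS call at 10 wk was lost, at adjusted p from 0.0542 to 0.104, without SHR replicate 4 or 5 at 8 wk or SHR replicate 1, 3, 4 or 5 at 10 wk. That in the RVLM was lost, at 0.0632 to 0.0950, without SHR replicate 2 or 4 at 8 wk or 4 or 5 at 10 wk. In WKY rats the CVLM call at 24 wk was lost, at 0.0556 to 0.146, without WKY replicate 3, 4 or 5 at 8 wk or 2 or 3 at 24 wk, and the RVLM call at 16 wk, at 0.0867 to 0.190, without WKY replicate 3, 4 or 5 at 8 wk or 1 or 3 at 16 wk. The CVLM call at 16 wk was lost in 11 of 46, at 0.0502 to 0.219, namely without WKY replicate 3, 4 or 5 at 8 wk, 3 at 10 wk or 1, 2 or 3 at 16 wk, or SHR replicate 3 at 8 wk, 1 or 2 at 10 wk or 5 at 16 wk.

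The other genes of the glutamate-glutamine cycle were compared between the strains as a list. Of the 34 genes of this list, 33 were in the tables and 31 passed the filter in at least 1 region. Averaged over ages, 1 of 31 passed the test in NTS, 1 of 30 in CVLM and none of 30 in RVLM, all lower in SHRs, with list medians of -0.02, 0.04 and 0.00 on the log2 scale against 0.01, 0.00 and 0.01 over all genes tested, of which 11.2, 12.3 and 10.8% were called in either direction. Slc1a1, the neuronal glutamate uptake carrier EAAC1, was lower in the NTS (-0.12, SE 0.04, adjusted p = 0.0330). Slc25a13, the mitochondrial aspartate-glutamate carrier citrin, was lower in the CVLM (-0.31, SE 0.07, adjusted p = 0.00162).

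At single ages 8 further calls came from this list. It held 31 tested genes in the NTS and 30 in each of the CVLM and the RVLM. Of all genes, 5.79% were called for NTS, 7.64% for CVLM and 9.78% for RVLM at 8 wk. At 24 wk the figures were 2.46% for NTS and 7.13% for CVLM. In the RVLM at 8 wk the list median was 0.11 on the log2 scale, against -0.02 over all genes tested. At 8 wk in the RVLM, Slc38a7, a lysosomal glutamine transporter, was higher in SHRs by 0.72 (SE 0.19, adjusted p = 0.0113), Slc38a10, a relative of it, by 0.53 (SE 0.18, adjusted p = 0.0483), and Slc1a2, the main astrocyte glutamate transporter, by 0.43 (SE 0.12, adjusted p = 0.0202). Also at 8 wk, Slc25a18, a mitochondrial glutamate carrier, was higher in the NTS (0.35, SE 0.09, adjusted p = 0.0182). In the CVLM at that age Got2, the mitochondrial aspartate aminotransferase, was higher (0.25, SE 0.08, adjusted p = 0.0482) and Glud1, glutamate dehydrogenase, lower (-0.34, SE 0.11, adjusted p = 0.0485). The WKY groups at 8 wk are those that mix the library numbers, and its part in these values was not tested. At 24 wk, Slc1a6, the glutamate transporter EAAT4, was higher in the NTS (1.11, SE 0.31, adjusted p = 0.0423) and Pc, pyruvate carboxylase, in the CVLM (0.38, SE 0.12, adjusted p = 0.0370).

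The list of amino acid response genes, to which Slc38a2 is known to belong by its regulation, held 11 other genes, of which 11 were tested in the NTS and 10 in the CVLM and the RVLM. None rose in SHRs averaged over ages, and 1, 3 and 2 fell, with list medians of -0.05, -0.12 and -0.10, beside the same 11.2, 12.3 and 10.8% of all genes. Psat1, a phosphoserine aminotransferase, was lower by 0.33 in the CVLM (SE 0.04, adjusted p = 5.40e-09) and by 0.36 in the RVLM (SE 0.05, adjusted p = 5.96e-07). Asns, asparagine synthetase, was lower in the NTS (-0.15, SE 0.04, adjusted p = 0.0156), Shmt2, the mitochondrial serine hydroxymethyltransferase, in the RVLM (-0.22, SE 0.06, adjusted p = 0.00738), and the transcription factor Atf4 (-0.15, SE 0.05, adjusted p = 0.0315) and Chac1 (-0.14, SE 0.05, adjusted p = 0.0488) in the CVLM. At single ages Psat1 was lower in the CVLM at 10 wk (-0.39, adjusted p = 0.00260), 12 wk (-0.32, adjusted p = 0.0334) and 24 wk (-0.46, adjusted p = 0.000476), and for the RVLM it passed the test at 24 wk (-0.53, adjusted p = 0.00346). Lower too were Asns (-0.28, adjusted p = 0.0199) and Atf4 (-0.39, adjusted p = 0.0258) in the CVLM at 24 wk. At those ages 3.18, 2.62 and 7.13% of all genes were called in the CVLM and 2.24% in the RVLM. Slc38a2 itself had -0.12 in the CVLM and -0.15 in the RVLM, which did not pass the test.

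The genes whose levels over all libraries were most like those of each member, by Pearson r of log2 CPM among 12132 genes, reflect first of all the regions, since libraries of a region share their level. Slc17a6 was most like Cnr1, the cannabinoid receptor of nerve terminals (r = 0.949), and then Necab1, Syt1, Impact and Ntm (0.918 to 0.948). Slc17a7 was most like Duox2 (r = 0.948), and then Neurod6, Cpne9 and Lamb3 (0.917 to 0.923). The values were lower for Slc38a1, with Celf4 (0.798), Nsg2, Cx3cl1, Shank2 and Hoxb2 (0.770 to 0.787), and for Slc38a2, with Rtn3 (0.826), Gria3, Kifap3, Ano4 and Megf10 (0.787 to 0.808).

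Taken as deviations from the mean of a region, strain and age, the most like genes were others. They were Asah2 (0.795), Impact, Gad2, Steap2 and Cnr1 for Slc17a6, and Tpbg (0.743), Tmem178a, Strn4, Tmpo and Fbxw2 for Slc17a7. For Slc38a1 they were Fat3 (0.724), Efr3b, Zmynd8, Camk2b and Ttbk2, and for Slc38a2 Nceh1 (0.837), Mapk6, Pcyt1a, Tgoln2 and Slc39a10. Among the members themselves, Slc17a6 and Slc38a2 deviated together (r = 0.549), and the other 5 pairs lay between -0.10 and 0.25. The libraries come from 46 rats, 3 from each, and share depth and library number, so these are descriptions.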

How the data were processed

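RNA-seq libraries of 3 brainstem regions of 46 rats were analysed. The authors deposited 1 table of RSEM expected counts per region, with STAR alignment to rn6 named in the methods; ComBat_seq is also named there, and whether it was applied to these values is not stated. Expected counts were rounded. Genes were kept where the largest rlog value (DESeq2 1.42.0) reached 3.5, which left 13793, 13408 and 13411 genes in the NTS, CVLM and RVLM and 14043 in any. edgeR 4.0.16 (R 4.3.3) quasi-likelihood tests with TMM were fitted per region on 10 groups of strain and age, and, for regions, on all libraries with the rat as a block. P-values were adjusted by Benjamini-Hochberg over all genes of a contrast, and called under 0.05. SE is the log2 difference over the root of F, and the 95% intervals assume a normal spread. They are thus slightly narrower than the F tests allow. The fits were tested on simulated data. In the NTS, 84% of true log2 changes of 0.5 were recovered as a mean over ages, and 17% at 24 wk alone. For changes of 1 the shares were 99% and 67%. A missing call at a single age therefore says little about a change near 0.5. No 2 libraries of a group agreed within sampling noise. Members and lists were chosen with earlier results of these data known. Named genes are all members, list genes that passed, and the 5 most like each member (log2 of CPM plus 0.5). Alternatives were RLE factors, DESeq2, limma 3.58.1, no filter, a replicate block, the library number, single ages, leaving out libraries, and the call rule of the study (adjusted p of at most 0.01 and a log2 change of at least 1). Prodh, Foxj1 and Pecam1 were not analysed here, and 1 of the genes most like Slc17a7 and 1 region marker are not reported here.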

Additional observations from a re-analysis of the deposited data

Results flagged for a closer look

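A library was flagged where it lay far from the rest of its group of 4 to 6 by Dixon's test at the 95% level. Of the 105 groups of the 5 genes examined, 8 (7.62%) held such a library, and chance flags about 1 in 20.

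For Slc17a6, SHR replicate 6 at 24 wk had 471 CPM in the NTS, where the other 5 ran from 255 to 328, and WKY replicate 4 at 8 wk had 126 CPM in the RVLM, where the others ran from 74.1 to 88.1. For Slc17a7, SHR replicate 6 at 24 wk had 327 CPM in the CVLM against 139 to 200 in the others. These 3 libraries carry library number 2, and the part of that number in their values was not tested.

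Slc38a2 stood high in the CVLM of WKY replicate 1 at 8 wk, at 481 CPM against 255 to 315, and of SHR replicate 2 at 16 wk, at 316 CPM against 238 to 257. It stood low in the NTS of SHR replicate 5 at 16 wk, at 154 CPM against 179 to 192. For Slc17a8, SHR replicate 1 at 8 wk had 0.131 CPM in the CVLM against 0.433 to 0.514, and SHR replicate 2 at 16 wk had 1.57 CPM in the RVLM, where the nearest had 0.974. The Slc17a8 values rest on 15 counts or fewer.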

How the results depend on the processing

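Over 433 pairs of a result and an alternative, 384 kept their direction and side of the threshold, or a count within 1.5 times. The causes of the changes were not tested unless an alternative's construction shows them.

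With the library number as a term, Slc38a1 at 8 wk in the CVLM turned to -0.10, its RVLM mean passed (-0.30, adjusted p = 0.0318), and the members called became 2 over the 5 ages in the CVLM and 1 for the RVLM mean. Without the libraries of number 2 outside 10 wk, Slc38a1 at 8 wk was -0.18 in the CVLM and -0.17 in the RVLM, the RVLM means of Slc38a1 (-0.37, adjusted p = 0.0147) and Slc38a2 (-0.20, adjusted p = 0.0425) passed, and the counts were again 2 over the CVLM ages and 2 for the RVLM mean.

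Replicate numbers are shared by the strains. Same-numbered pairs deviated together at r over 0.1 in 33 of 54 (median 0.17, range -0.37 to 0.58) and not in the rest, and no label ties the numbers, so they were not taken as pairs. With the replicate block, the Slc17a6 NTS mean was -0.0298 (adjusted p = 0.835), the Slc38a1 CVLM mean -0.27 (adjusted p = 0.0522), Slc38a1 at 24 wk in the CVLM -0.61 (adjusted p = 0.102) and the Slc17a7 RVLM mean 0.72 (adjusted p = 0.0354), which gave 0 members called in the CVLM for the mean and over the ages and 1 for the RVLM mean.

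Under the call rule of the study no member was called for the mean (0 in the NTS, 0 in the CVLM) or over the CVLM ages (0), and 1 was called in each of NTS minus RVLM and NTS minus CVLM in WKY rats and SHRs, since it asks for a log2 change of 1. DESeq2 called 1 in the NTS over the ages (Slc17a7 at 24 wk, adjusted p = 0.0198), fits of each age alone 1 (Slc38a1 at 16 wk, adjusted p = 0.0201), and without the filter 0 were called over the CVLM ages, more genes being tested. Without the rat block, NTS minus RVLM of Slc17a7 in WKY rats was 0.0030.

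Leaving out 1 library at a time, the means ran from 0.64 to 0.97 for Slc17a7 in the NTS, -0.0536 to 0.0056 for Slc38a2 in the NTS and -0.32 to -0.24 for Slc38a1 in the RVLM. The members called ran from 1 to 2 for the NTS mean, and from 0 to 1 for the RVLM mean and over the ages in the NTS, the CVLM and the RVLM. For regions this was run only with limma on within-rat differences, an alternative chosen after seeing the data, where NTS minus RVLM of Slc17a7 in WKY rats ran from -0.25 to 0.0041. Slc17a8, at 15 counts or fewer, was fitted only without the filter.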
